A study of Glycyrrhiza uralensis with 12 samples.

Results

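The genes described here are the 1630 of the 34445 annotated genes of *Glycyrrhiza uralensis* (4.73%) whose gene model carries 2 or more mRNA features in the deposited annotation. The rule that picks them reads the annotation and no measured value, and they hold 3660 annotated transcripts: 1302 genes have 2, 266 have 3, 53 have 4, 8 have 5 and 1 has 6. A transcript, or form, is named by the number after the dot of its identifier. For each gene the share of a transcript is its CPM (reads scaled to 1000000 counted reads of the library) as a percentage of the summed CPM of all annotated transcripts of that gene. Shares were compared for the 790 genes (48.5%) with 10 or more CPM summed over the 12 libraries. Of the remaining 840 genes, 747 had reads but under 10 summed CPM and 93 had no read on an annotated transcript. Just inside the cutoff were Glyur001281s00028022 at 10.0025 and Glyur000346s00018187 at 10.0136 summed CPM, and just outside Glyur000364s00018041 at 9.999 and Glyur000373s00018549 at 9.97.

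The study grew seedlings of *G. uralensis*, a medicinal legume (licorice), in pots of sterilized desert sand and sequenced cDNA of seedlings aged 45 days, made by a nanopore full-length protocol with PCR, so that reads are not independent molecules. The sources also name an Illumina preparation or platform for the same libraries, and the tables do not tell which instrument gave the reads. The control (CK) received distilled water and CK+G2 received water with a suspension of *Bacillus cereus* G2, a bacterium given to plants as an inoculant. S received 75 mM NaCl, and S+G2 received 75 mM NaCl with the same bacterium. Each of the 4 treatments had 3 libraries, called biological replicates in the methods, where seedlings are described as ground and then divided by weight, so p-values measure the spread between these libraries, which may be partly technical. In ground seedlings fewer cells of a type and less RNA per cell cannot be told apart.

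One gene can give several mRNAs when transcription starts or ends at different places, or when introns and exons are joined in different ways. In plants, leaving an intron in the mRNA is a common form of this, and exon skipping is less frequent than in animals. The forms may encode different proteins, or the same protein with other untranslated ends. A read that spans a whole mRNA can tell such forms apart.

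The 12 libraries held between 3303591 and 3929023 counted reads, so 1 read was worth 0.255 to 0.303 CPM and 3 reads 0.764 to 0.908 CPM. Annotated transcripts of any gene took 29.5% to 30.7% of the CPM of a library, the rest lying on transcripts the authors assembled. The annotated transcripts of the 790 genes took 0.956% to 1.09%, or 32855 to 39634 reads in a library. No library stood apart in these values.

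Compared with the 32815 genes that have 1 annotated transcript, the 1630 genes were longer and had more exons. The transcript with number 1 had a median of 8 exons against 3, the gene a median length of 5377.5 against 2523 bases, and the coding sequence 1150.5 against 798 bases. Of them 98.8% were listed in the gene table, against 80.6% of the genes with 1 annotated transcript. None of them was a single-exon gene, against 16.4% of the others. These are descriptions of the annotation and of detection, without a test.

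Among the 790 genes, each first transcript was set against every further one, which gave 999 pairs. The most frequent difference lay at the ends: in 556 pairs (55.7%) one form ended short of the other on the 5′ side and in 399 (39.9%) on the 3′ side, and in 299 pairs (29.9%) one form was wholly contained in the other. An alternative 5′ splice site was found in 181 pairs (18.1%), a retained intron in 138 (13.8%), an alternative first exon in 137 (13.7%), an alternative 3′ splice site in 128 (12.8%) and an alternative last exon in 101 (10.1%). A skipped exon was found in 43 pairs (4.30%). One pair can carry several of these differences.

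The coding sequence was the same in 238 of the 999 pairs (23.8%). In the other 761 pairs, some of them of equal coding length, any difference in coding length was a multiple of 3 bases. The median absolute difference was 441 bases. Among all 1630 genes, 41 annotated transcripts had a coding length above their spliced length, which limits these lengths. In 951 of the 1789 annotated transcripts of the 790 genes the spliced length equalled the coding length, so no untranslated region was annotated. A further limit lies in the lengths: 251 of these transcripts were shorter than 500 bases, the minimum read length the authors kept, yet 161 of them had reads and together they took 11.6% of the CPM of the 790 genes. The reads counted for such a form were thus at least as long as the form itself before trimming.

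In most genes 1 form held most of the CPM of the annotated forms. The transcript with the most CPM, called the main transcript, held a median of 90.2% of the annotated CPM (quartiles 68.2% and 98.7%, lowest 26.9%). It held at least 99% in 183 genes (23.2%) and at least 90% in 398 (50.4%). A second form reached at least 25% in 238 genes, and in 121 genes the main form stayed under 60%. A single transcript had reads in 122 of the 790 genes, 2 had reads in 555, 3 in 96 and 4 or more in 17. The main form was the one with number 1 in 417 genes (52.8%), the longest in spliced length in 467 (59.1%), and the shortest in 269.

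Which form prevailed differed with the kind of pair among genes with exactly 2 transcripts. Where one form retained an intron and exon numbers differed, the form with more exons held a median of 88.3% over 73 genes, and over 50% in 45 of them. With a skipped exon the form with more exons held a median of 50.7% over 22 genes. Where one form was contained in the other, the form with more exons held a median of 39.2% over 203 genes, so the shorter model took most of the CPM in more of these genes than the longer one did, which held over 50% in 81. These groups overlap and their difference was not tested.

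The annotated forms were often a small part of what the gene gave. Over the 790 genes the annotated transcripts held a median of 36.9% of the CPM of the gene (quartiles 6.93% and 100%), with 238 genes under 10% and 313 genes at 90% or more. Over all 1611 genes of the set that are in the gene table the median was 4.03%, with 60.3% of them under 10%. For genes with 1 annotated transcript the median was 99.1%, with 30% under 10%. The rest of the level of such a gene lay on assembled transcripts, so that a share given here describes the annotated forms and not all mRNAs of the gene.

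In 85 of the 790 genes, 2 transcripts with reads had no exon base in common, and in 46 of these both held at least 10%. In 65 of the 85 a further annotated transcript overlapped both and so joined them into one model. This joining transcript had no read in 16 genes, held 50% or more in 18, and had a median share of 8.42%. The shares of 2 such forms compare separate pieces of a locus and not 2 ways of splicing the same piece. Where a joining transcript had reads, its own share sets it against pieces that it overlaps.

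The gene for an aldehyde dehydrogenase (ALDH) on the study's list, Glyur000698s00016570, is one of the 16. It lies on Scaffold00698, minus strand, from 13429 to 20615 (the files and methods at hand name no genome build). ALDH oxidizes aldehydes to acids, among them acetaldehyde from fermentation. Transcript 1, with 15 exons across the whole locus, had no read in any library. Transcript 2, with 11 exons from 13429 to 18113, and transcript 3, with 4 exons from 19631 to 20615, do not overlap, and held 33.7% and 66.3% of the annotated CPM.

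The ALDH transcript 2 (Glyur000698s00016570.2) had a share of 0, 22.2 and 25% in CK, 30.8, 23.5 and 16.7% in CK+G2, 22.2, 52.9 and 61.5% in S, and 52.4, 45.5 and 12.5% in S+G2. The highest values were in salt-treated libraries, but each salt group also had a library at the level of the controls, so the groups overlapped. The log2 ratio of this form to the rest was 1.55 ± 0.63 (SE) higher in S than in CK, with an adjusted p of 0.498 by limma. The levels behind it were low, at most 2.93 CPM for transcript 2. The annotated forms held 33.7% of the CPM of the gene. At the level of the whole gene, ALDH had a log2 fold change of 0.79 ± 0.24 (SE) in S against CK. This did not pass, with an unadjusted p of 0.00726 and an adjusted p of 0.134 by limma. The study lists this gene as higher in S against CK, by its own thresholds of p and fold change.

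Of the 22 genes that the study lists with an enzyme of carbohydrate metabolism, 2 have more than 1 annotated transcript. The other one is a trehalose-6-phosphate synthase (TPS, an enzyme of trehalose synthesis), Glyur000018s00003759, on the plus strand of Scaffold00018 from 596594 to 614997. Its annotated transcripts, 1 (18 exons) and 3 (2 exons), had 2.21 summed CPM, under the cutoff, and held 0.433% of its CPM. The gene itself was at a mean of 42.6 CPM, and its level is given with those of the other genes further on.

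Before shares are compared, the reads of the forms are given side by side for 3 genes, named after their values were seen. In Glyur000422s00020636 transcript 1 had 302, 328 and 279 reads in CK, 244, 305 and 269 in CK+G2, 236, 256 and 322 in S, and 268, 254 and 287 in S+G2. Transcript 2 (Glyur000422s00020636.2) had 302, 329 and 278 reads in CK, 246, 311 and 268 in CK+G2, 238, 257 and 322 in S, and 270, 253 and 289 in S+G2. The 2 forms thus differed by at most 6 reads in any library.

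Near-equal reads were also seen at lower depth. In Glyur000173s00011831 forms 1 and 2 had equal reads in 9 of the 12 libraries and differed by at most 3, with totals of 108 and 104. In Glyur000136s00007920 form 1 was below form 2 by 17 to 28 reads in every library, with totals of 1149 and 1418. The sources used here do not say whether a read that fits several forms was counted once or for each; the files hold no single reads, so this was not tested.

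Over the genes tested for shares, the variance of the share between replicates was divided by the variance that counting reads alone would give, a ratio of 1 meaning counting alone. Over 300 transcripts of 230 genes in which the transcript and the other forms each averaged at least 1 CPM, called rows from here on, the ratio had a median of 0.791 (quartiles 0.437 and 1.28). It was under 1 in 184 rows, under 0.2 in 28 and under 0.1 in 9. It was under 0.2 in 9.33% of all rows. The share was 10% for the 130 rows of genes with a contained form, 13.9% for the 79 rows of genes in which 2 forms with reads have no exon base in common, and 2.38% for the 42 rows of genes with forms that share no splice site, and these were not tested against each other.

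At the other end, 24 rows had a ratio over 2 and 9 over 3. The highest ratio, 12.7, was that of Glyur000039s00004184.1, named here after its values were seen. Its share was 2.47, 5.42 and 8.16% in CK, 14.0, 1.94 and 4.44% in CK+G2, 7.43, 9.90 and 11% in S, and 6.47, 15.5 and 3.32% in S+G2. The values differed as much within a treatment as between treatments, and did so at 4143 annotated reads over the 12 libraries.

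**Figure D1:**
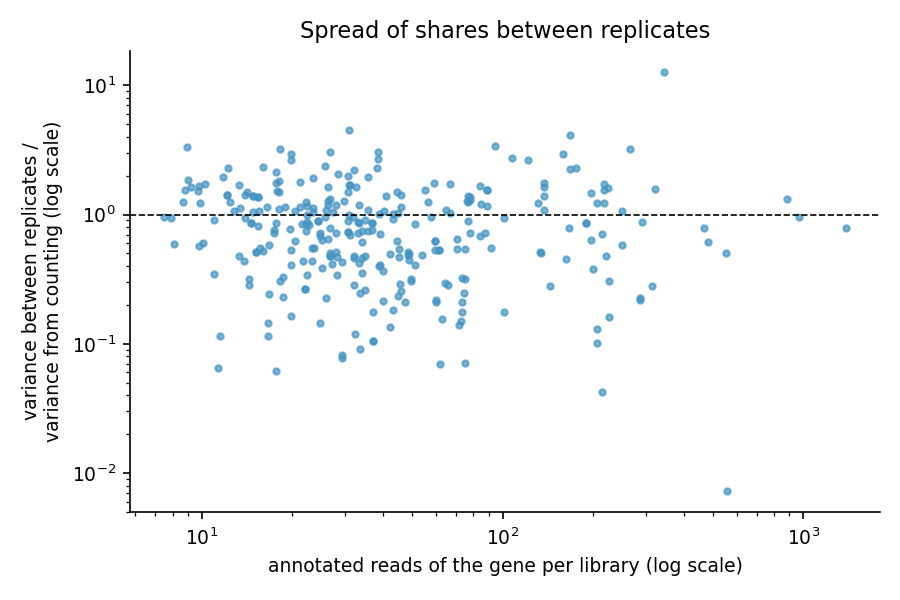
Each point is 1 of the 300 tested rows: on the x axis the annotated reads of the gene per library (log scale), on the y axis the variance of the share between replicates divided by the variance from counting reads (log scale). The dashed line marks a ratio of 1; 184 rows lie under it, and the lowest point, near 0.0072, is Glyur000422s00020636.1 while the highest, at 12.7, is Glyur000039s00004184.1.

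The main comparison asked whether the share of a transcript differed among the 4 treatments. It was made on log2((CPM of the transcript + 0.5)/(CPM of the other annotated forms + 0.5)) with limma, for the same rows. A gene with 2 transcripts gave 1 row and a gene with more gave 1 row for each transcript, so 300 rows were tested. Rows of the same gene are not independent. Where only 2 of several forms had reads, their rows mirror each other. These genes had a median of 33.6 annotated reads per library. A row was called at a Benjamini-Hochberg adjusted p under 0.05 over the 300 rows.

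No row was called over the 4 treatments (0 of 300, 0%), with a lowest adjusted p of 0.319 by limma. There were 24 rows at an unadjusted p under 0.05 where 15 would come by chance. They lay in 18 of the 230 genes. Against CK, S gave no call (0%), 24 rows at an unadjusted p under 0.05 and a lowest adjusted p of 0.283. S+G2 against S gave no call (0%), 10 such rows and a lowest adjusted p of 0.795. CK+G2 against CK gave 1 call (0.333% of rows) and 19 such rows. The counts in this paragraph are from limma. By edgeR on the recovered reads of the same 230 genes no gene was called in any of these pairs, and 4, 1 and 5 genes were at an unadjusted p under 0.05.

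Over all 6 salt-treated against all 6 other libraries, limma called no row (0%), with 30 rows at an unadjusted p under 0.05 and a lowest adjusted p of 0.179. By edgeR 11 genes were at an unadjusted p under 0.05 and none was called. The interaction of salt and G2, which asks whether G2 changed shares differently with and without salt, gave no call (0%), 13 rows at an unadjusted p under 0.05 and a lowest adjusted p of 0.796. By edgeR 1 gene was at an unadjusted p under 0.05 and none was called.

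The intervals show how large a change on this log2 scale could have been missed, if each read was counted for 1 form only. As said above, the sources leave this open, and its effect on the intervals was not tested. The 95% interval of a change of the log2 ratio was a median of ±0.73 in a pair of treatments, ±0.52 for salt over 12 libraries and ±1.04 for the interaction. For salt, the interval lay within ±1 in 225 of 300 rows and within ±2 in 294. In S against CK it lay within ±1 in 135 rows and within ±2 in 276. A change of 1 is a doubling of the ratio with 0.5 CPM added to both parts. In rows of few CPM the added 0.5 CPM makes a change of the plain ratio look smaller than it is. In the remaining rows the interval reached beyond these limits.

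**Figure D2:**
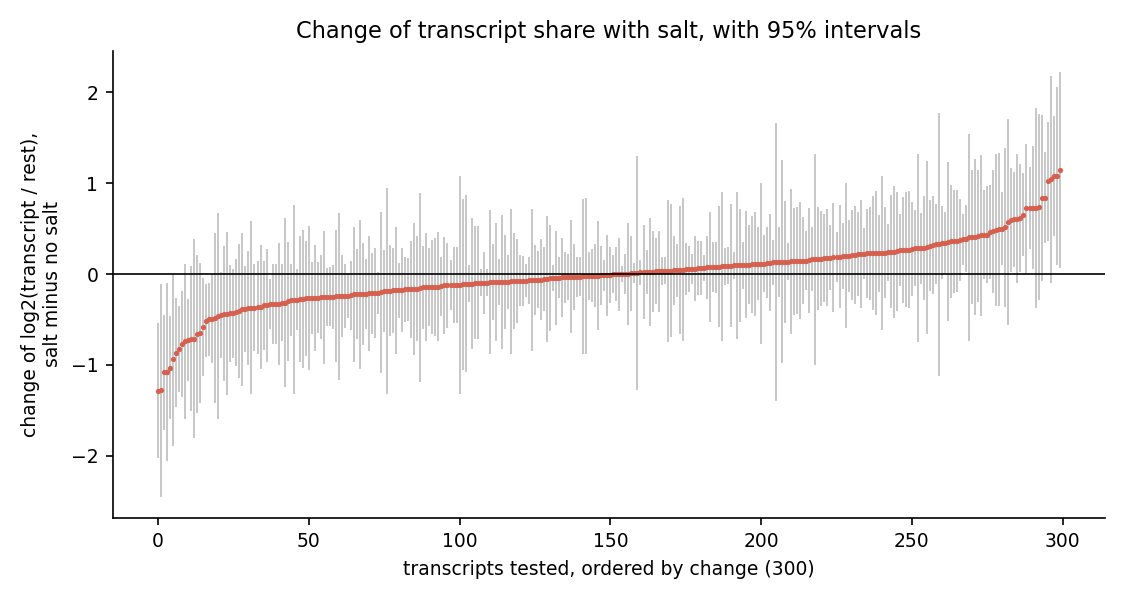
The 300 tested rows ordered by the change of log2(transcript/rest), all salt-treated minus all other libraries, with the change on the y axis as a point and its 95% interval as a grey line. The interval left out 0 in 30 rows, on either side, and lay within ±1 in 225.

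The single call was Glyur000597s00020330 (Scaffold00597, plus strand, 112794 to 118459), whose 2 forms differ by an intron of 84 bases from 112952 to 113035. Form 2, with 11 exons, keeps it as coding sequence, and form 1, with 12 exons, has it removed and starts further upstream with untranslated sequence. Form 2 was the main one, with 92.3% of the annotated CPM. Form 1 had 151 of the 1955 annotated reads of the gene over the 12 libraries. Both forms together held 46.4% of the CPM of the gene. The function of this gene is not annotated in the files.

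The share of the form without the intron, Glyur000597s00020330.1, was 6.25, 3.82 and 5.26% in CK, and 10.1, 12 and 11.1% in CK+G2. It was 9.18, 6.12 and 5.56% in S, and 7.22, 7.65 and 8.72% in S+G2. The 3 CK+G2 libraries were above all other libraries, and the S and CK libraries overlapped. The log2 ratio was 1.07 ± 0.19 (SE) higher in CK+G2 than in CK, with an adjusted p of 0.0437 by limma. The call was lost in 15 of 19 alternatives, with edgeR on the reads (log2 change 0.75, adjusted p of 0.996) among them. The level of this form did not pass the test in CK+G2 against CK (log2 fold change 0.75, adjusted p of 0.742 by limma).

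Comparing libraries without a model, the 3 libraries of S did not overlap those of CK in 35 of the 300 rows (11.7%). For S+G2 against S this was so for 32 rows (10.7%), for CK+G2 against CK for 25 (8.33%) and for S+G2 against CK+G2 for 51 (17.0%). Full separation of 3 against 3 libraries cannot give an exact permutation p under 0.1, so these rows were only counted. Between the 6 salt-treated and the 6 other libraries the shares did not overlap in 3 rows (1.00%), in Glyur000265s00020607, Glyur000752s00022799 and Glyur000142s00009126. None of the 3 rows passed the test with limma.

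Glyur000265s00020607 (Scaffold00265, minus strand, 47697 to 56506) has form 1 of 7 exons and 2 shorter forms contained in it, form 2 with 4 exons on its 5′ side and form 3 with 2 exons on its 3′ side. Form 1 (Glyur000265s00020607.1) held 66.3, 56.6 and 57.3% in CK, 64.3, 62.0 and 55.8% in CK+G2, 53.4, 52.1 and 48.4% in S, and 27.0, 42.6 and 51.3% in S+G2. All 6 libraries with salt were below the 6 without. The log2 ratio fell by 0.82 ± 0.21 (SE) with salt at an unadjusted p of 0.00275, which became 0.179 after adjustment over the rows (limma).

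In CPM the level of Glyur000265s00020607.1 was 16.7, 17.7 and 16.6 in CK, 14.8, 12.9 and 14.9 in CK+G2, 8.99, 10.7 and 7.89 in S, and 2.66, 6.86 and 10.4 in S+G2. The shorter Glyur000265s00020607.2 ranged from 3.60 to 6.96 CPM over the 12 libraries. The level of form 1 had a log2 fold change of -0.83 ± 0.20 (SE) in S against CK, with an adjusted p of 0.0994 by limma, which did not pass.

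Glyur000752s00022799 (Scaffold00752, minus strand, 83703 to 107883) has 3 forms of 17 to 19 exons that differ at their ends. Form 2 (Glyur000752s00022799.2) held 34.1, 30 and 51.5% in CK, 39.5, 32.0 and 50% in CK+G2, 27.5, 20.8 and 15.4% in S, and 29.2, 20.8 and 18.2% in S+G2. The highest salt-treated library, at 29.2%, was just under the lowest other, at 30%. The log2 ratio fell by 1.03 ± 0.26 (SE) with salt, unadjusted p of 0.00199 and adjusted p of 0.179 (limma). Forms 1 and 3 held 34.6% and 33.3% over all libraries, so none of the 3 forms prevailed. All 3 together held 51.6% of the CPM of the gene.

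In Glyur000142s00009126 (Scaffold00142, plus strand, 243689 to 259706), named after its values were seen, form 2 with 28 exons held 46.7 to 55.0% in the 6 libraries without salt and 28.2 to 45.9% in the 6 with salt. The log2 ratio fell by 0.51 ± 0.18 (SE), with an adjusted p of 0.362 by limma. Form 1, which joins form 2 and the 4-exon form 3, had 35 reads in all, and forms 2 and 3 share no exon base.

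**Figure D3:**
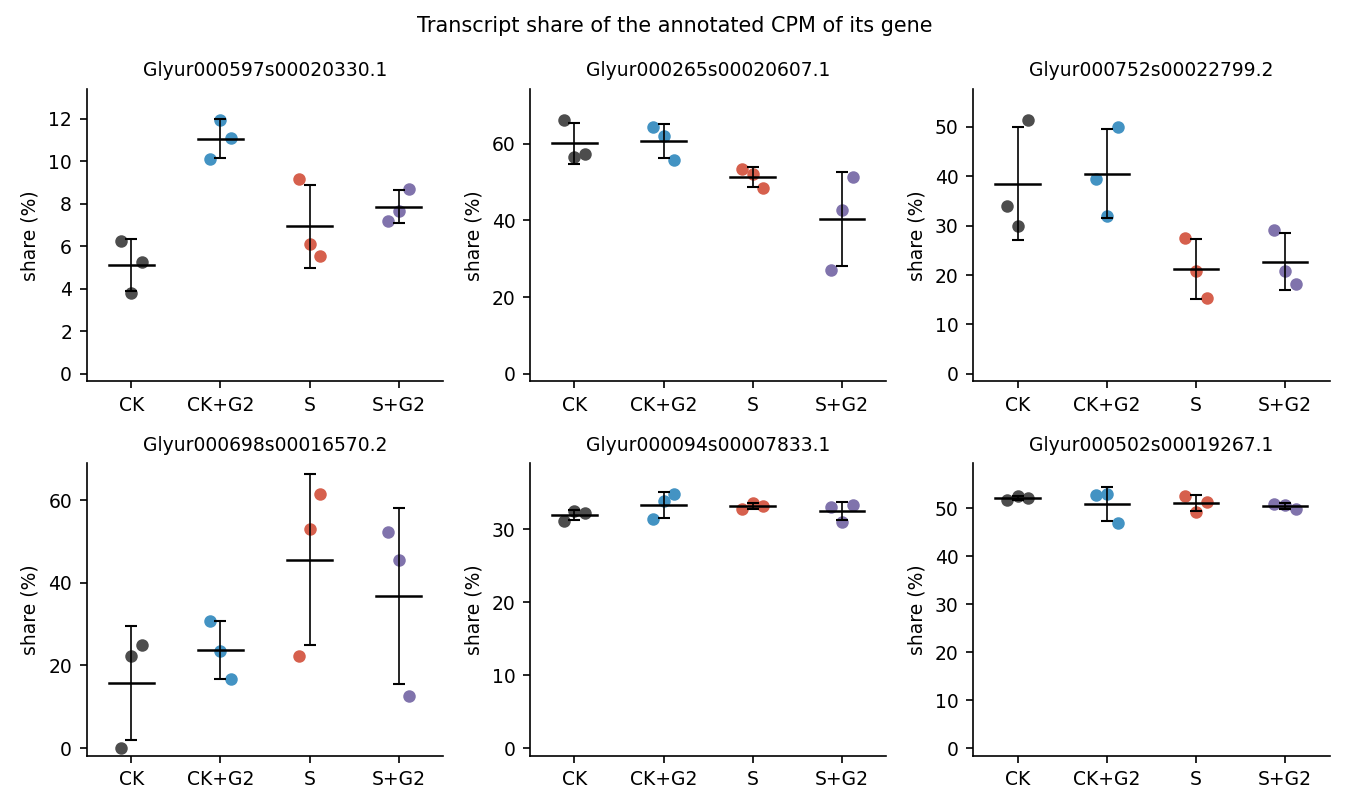
Share of 1 transcript in the annotated CPM of its gene (percent, y axis) in the 3 libraries of each treatment (points), with the mean (line) and SD (bars), for 6 genes. In Glyur000597s00020330.1 the CK+G2 libraries lie highest; in Glyur000265s00020607.1 and Glyur000752s00022799.2 the libraries with salt lie below those without; in Glyur000094s00007833.1 and Glyur000502s00019267.1 the shares lie at 31.1 to 34.9% and 46.9 to 53.0%.

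Of the other genes with the smallest p over the 4 treatments, none was past the threshold. In Glyur000311s00024716, a gene with 4 annotated forms, form 5 (Glyur000311s00024716.5) held 13.9, 7.69 and 14.8% in CK, 23.5, 21.4 and 29.5% in CK+G2, 13.2, 15.6 and 15.2% in S, and 19.0, 26.7 and 32.4% in S+G2. Every library with G2 was above every library without it, a contrast of 6 against 6 that was not tested. The log2 ratio was 0.99 ± 0.26 (SE) higher in CK+G2 than in CK, with an adjusted p of 0.276 by limma. This form of 213 bases is shorter than the 500 bases of the shortest reads kept.

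In Glyur000089s00008812 form 1 (Glyur000089s00008812.1) held 66.7, 100 and 77.8% in CK and 30.8, 0 and 0% in CK+G2, with 57.1, 36.8 and 71.4% in S and 66.7, 40 and 50% in S+G2. The CK and CK+G2 libraries did not overlap, but the level of form 1 was at most 2.12 CPM in any library. The log2 ratio was lower in CK+G2, at -2.40 ± 0.51 (SE) with an adjusted p of 0.0983 by limma. Its 3 forms have the same coding sequence and together held 19.4% of the CPM of the gene.

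In Glyur000043s00003827 form 1 (Glyur000043s00003827.1) held 66.7, 83.3 and 100% in CK, 71.4, 50 and 62.5% in CK+G2, 22.2, 36.4 and 50% in S, and 47.1, 50 and 60% in S+G2. S and CK did not overlap. The log2 ratio was lower in S, at -1.78 ± 0.41 (SE) with an adjusted p of 0.283 by limma, at a level of 0.58 to 2.80 CPM over the 12 libraries. In Glyur000134s00009747 form 2 (Glyur000134s00009747.2) held 25, 30 and 33.3% in CK, 33.3, 50 and 57.9% in CK+G2, 50, 40.9 and 35.3% in S, and 66.7, 55.6 and 61.5% in S+G2. CK was lowest and S+G2 reached highest, a pair that was not tested, and over the 4 treatments its adjusted p was 0.441 by limma. These shares describe a small part of each gene level. Annotated forms held 1.94% of the gene CPM in Glyur000043s00003827 and 3.26% in Glyur000134s00009747.

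The genes with the highest annotated CPM showed how alike shares could be. As said above, the sources do not say how reads that fit several forms were counted. Its effect on these shares was not tested. Glyur000094s00007833 (Scaffold00094, plus strand, 12407 to 15013) had a mean of 375.9 annotated CPM on 2 forms with the same coding sequence, of which form 2 lacks the first exon and all untranslated sequence. The share of its form 1 was 31.1, 32.5 and 32.3% in CK, 31.4, 33.9 and 34.9% in CK+G2, 32.8, 33.6 and 33.2% in S, and 33.1, 31.1 and 33.3% in S+G2. The treatments overlapped in a range of under 4 percentage points. The change with salt was 0.01 ± 0.05 (SE) on the log2 scale, 95% interval -0.10 to 0.12.

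Glyur000502s00019267 (Scaffold00502, minus strand, 58846 to 61677) likewise has 2 forms with the same coding sequence, and a mean of 240.2 annotated CPM. Its form 1 held 51.8, 52.6 and 52.0% in CK, 52.7, 53.0 and 46.9% in CK+G2, 52.6, 49.3 and 51.2% in S, and 51.0, 50.7 and 49.8% in S+G2. The treatments overlapped again. The change with salt for Glyur000502s00019267.1 was -0.04 ± 0.07 (SE), 95% interval -0.19 to 0.10. In the other 3 genes of highest annotated CPM, 1 form held nearly all of it: 99.998% in Glyur000094s00007856, 99.9% in Glyur000192s00009355 and 99.3% in Glyur000053s00006440.

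The form of highest mean CPM was not the same in all 4 treatments in 79 of the 790 genes (10%). In 8 of these the shares of that form did not overlap between 2 treatments with at least 5 annotated CPM each. Every pair of treatments in which that form differed was searched. In the single pairs of treatments given above, 8.33% to 17.0% of the 300 rows did not overlap, so the 8 genes are a description only. The largest difference among these 8 was in Glyur000697s00030033 (Scaffold00697, minus strand, 113759 to 120628), whose form 1 has 7 exons and form 2 has 3. Form 1 (Glyur000697s00030033.1) held 52.9, 31.6 and 52.4% in S and 57.7, 69.6 and 68.4% in S+G2, but also 38.5, 72.7 and 40% in CK and 70.0, 76.2 and 70.6% in CK+G2. Libraries with G2 were above those of S, while 1 CK library was as high. The log2 ratio was 0.99 ± 0.45 (SE) higher in S+G2 than in S, with an adjusted p of 0.795 by limma.

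The gene with most forms, Glyur000185s00016457 (Scaffold00185, minus strand, 79358 to 133210), had reads on all 6 of them. Its form 4 held the most, 26.9%, followed by form 6 with 25.1%, form 3 with 22.3% and form 1 with 21.3%, forms 2 and 5 holding 2.96% and 1.46%. Form 6 (Glyur000185s00016457.6) held 26.9, 35.3 and 50% in CK and 15.4, 18.5 and 25% in CK+G2, which did not overlap. Its log2 ratio was lower in CK+G2, at -1.10 ± 0.42 (SE) with an adjusted p of 0.658 by limma. Forms 1 and 4 share no exon base.

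Form 3 of Glyur000759s00034218 (Scaffold00759, minus strand, 33353 to 41741) held 20.8, 32.1 and 30.8% in CK, 38.5, 51.0 and 40% in CK+G2, 46.2, 32.5 and 34.7% in S, and 12.5, 33.3 and 37.0% in S+G2. The CK+G2 libraries did not overlap those of CK or S+G2, but did overlap those of S. Its form 2 (Glyur000759s00034218.2) held from 7.69 to 62.5% over the libraries, and from 7.69 to 54.2% within CK alone. No comparison of this gene passed the test.

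A set of 3 values was also computed for each library over all 790 genes. The form with number 1 took 51.6 ± 0.25% of the annotated CPM in CK, 51.5 ± 1.3% in CK+G2, 50.8 ± 1.7% in S and 50.2 ± 1.4% in S+G2 (mean ± SD, n = 3). The mean share of the main form was 83.0 ± 0.41% in CK, 82.8 ± 0.60% in CK+G2, 83.1 ± 0.52% in S and 83.4 ± 0.41% in S+G2. The treatments overlapped in both. With salt the first differed by -1.02 percentage points (exact permutation p = 0.152, 6 against 6 libraries, two-sided) and the second by 0.35 (exact permutation p = 0.223). Without the 10 genes of highest annotated CPM the first became 0.052. The second was 0.197 without CK+G2 replicate 1 and 0.497 without S replicate 3 and kept its sign without any 1 library.

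The part of the gene level on annotated transcripts was 20.6, 21.3 and 20.8% in CK and 22.4, 21.6 and 21.5% in S. The 3 libraries of S were above those of CK, and a difference of 3 against 3 libraries cannot give an exact permutation p under 0.1, the value found here. It was 21.9, 21.3 and 21.1% in CK+G2 and 20.7, 23.0 and 20.8% in S+G2. Over 18 such tests the lowest adjusted p was 0.779 (exact permutation tests, two-sided).

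Levels of the annotated transcripts were compared next, over the whole transcript table with limma on log2(CPM + 1). In S against CK none of the 957 tested transcripts of these genes passed an adjusted p under 0.05, against 1.00% of all transcripts tested (0.132% higher and 0.868% lower). At an unadjusted p under 0.05 were 57 of the 957 (5.96%, against 13.0% of all tested). None of 960 passed in S+G2 against S (0.00996% of all tested, 0.00498% higher and 0.00498% lower). There 47 were at an unadjusted p under 0.05 (4.90%, against 5.96% of all tested). None of 969 passed in CK+G2 against CK (0.0345% of all tested, 0.00739% higher and 0.0271% lower), with 42 at an unadjusted p under 0.05 (4.33%, against 6.27% of all tested). By edgeR on the recovered reads the count was also 0 in each. Annotated transcripts of other genes passed in 0.321% in S against CK, at a median level of 5.29 CPM against 3.25 CPM here.

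At the level of the whole gene, assembled transcripts included, 14 of 1524 tested genes passed in S against CK, 5 higher and 9 lower, which is 0.919% against 1.94% of all genes tested (0.357% of all higher and 1.58% lower). At an unadjusted p under 0.05 by limma were 180 of the 1524 (11.8%, against 15.3% of all tested). In S+G2 against S none of 1520 passed (0.00465% of all tested), with a count of 0 also by edgeR. There 89 were at an unadjusted p under 0.05 by limma (5.86%, against 5.88% of all tested). In CK+G2 against CK 1 of 1519 passed, lower (0.0600% of all tested, 0.0185% higher and 0.0415% lower). In 12 of the 14 genes under 5% of the CPM of the gene lay on annotated transcripts. With any 1 of the 6 libraries left out the 14 became 3 to 6, and with edgeR 9. For 11 of the 14 genes the call held in at most 5 of 11 alternatives. Apart from TPS, these genes are named after their values were seen.

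The firmest of them was Glyur000046s00004804 (Scaffold00046, plus strand, 138519 to 141710). Its gene level was 25.2, 30.7 and 30 CPM in CK, 74.5, 67.8 and 63.4 in S, 43.2, 70.5 and 58.3 in CK+G2, and 21.8, 40.1 and 74.0 in S+G2. The S libraries were all above the CK libraries, those of CK+G2 too, while S+G2 spread over the whole range. The log2 fold change in S against CK was 1.23 ± 0.15 (SE), adjusted p of 0.00390 by limma, and it passed in each of 11 alternatives, the only one of the 14 to do so. Annotated forms held 2.36% of its level.

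The other genes that rose in S had log2 fold changes of 1.36 in Glyur000191s00015612, 1.02 in Glyur001132s00025468, 0.96 in Glyur000065s00004317 and 0.84 in Glyur001366s00034400. In this order, their calls held in 6, 5, 4 and 5 of 11 alternatives. Glyur001132s00025468 (Scaffold01132, minus strand, 5486 to 10255) was at 10.6, 14.1 and 12.1 CPM in CK and 28.4, 25 and 24.2 CPM in S. In S+G2 it was at 24.2, 21.6 and 28.5 CPM, so all 6 salt-treated libraries were above the 3 of CK. In CK+G2 it was at 15.9, 15.3 and 9.81 CPM.

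Among the 9 that fell in S, the largest change was in Glyur001112s00036226 (Scaffold01112, plus strand, 28010 to 31710), at 112.0, 71.7 and 119.9 CPM in CK and 42.9, 14.6 and 20.4 CPM in S. The groups did not overlap, and its log2 fold change was -2.03 ± 0.34 (SE), adjusted p of 0.0181 by limma, passing in 9 of 11 alternatives. TPS (Glyur000018s00003759) was at 55.1, 47.1 and 48.4 CPM in CK and 29.3, 33.7 and 26.7 CPM in S. It had a log2 fold change of -0.73 ± 0.15 (SE) with an adjusted p of 0.0449 by limma, which held in 2 of 11 alternatives. In S+G2 TPS was at 45.3, 37.5 and 64.2 CPM, above S in every library, with a log2 fold change of 0.66 ± 0.21 (SE) against S. This change did not pass, with an unadjusted p of 0.0123 and an adjusted p of 0.781 by limma. The study lists TPS as lower in S against CK and higher in S+G2 against S, by its own thresholds of p and fold change.

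Glyur000056s00004115 (Scaffold00056, minus strand, 103066 to 104906) was the one gene that passed in CK+G2 against CK. It was at 18.8, 11.1 and 24.5 CPM in CK, 3.01, 2.63 and 1.68 in CK+G2, 5.80, 1.97 and 5.85 in S, and 2.93, 12.1 and 2.07 in S+G2. Only CK had all 3 libraries above 11 CPM. The log2 fold change was -2.43 ± 0.32 (SE) in CK+G2 (adjusted p of 0.0484) and -1.82 ± 0.38 (SE) in S (adjusted p of 0.0447), both by limma against the same CK libraries. All of its level lay on annotated forms. In CK+G2 the call held in 1 of 11 alternatives, and in S in 3 of 11.

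**Figure D4:**
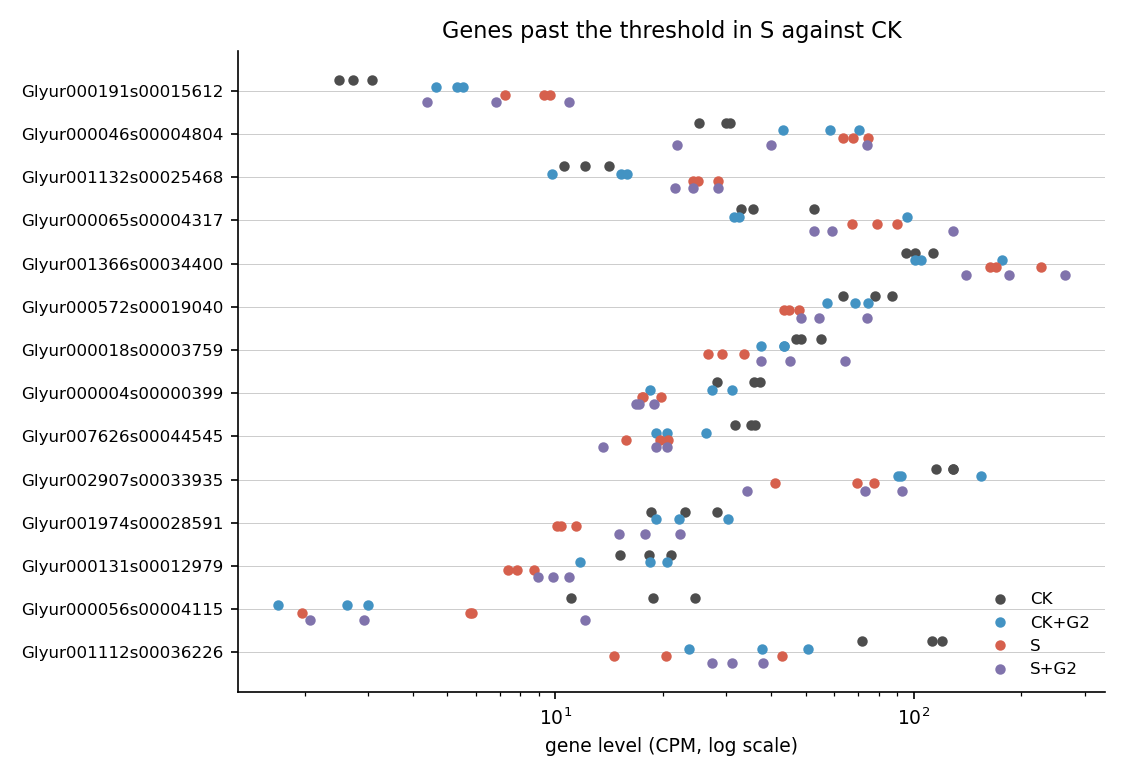
Gene level in CPM (x axis, log scale) of the 14 genes that passed in S against CK, 1 row per gene and 1 point per library, coloured by treatment. In every row the 3 S libraries lie to one side of the 3 CK libraries; the CK+G2 and S+G2 libraries lie between or beside them, and for Glyur000046s00004804 those of S+G2 reach from 21.8 to 74.0 CPM.

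Of the 790 genes, 214 overlap a gene on the opposite strand, 62 of them among the 230 tested for shares, and none overlaps a gene on the same strand. The files and methods at hand do not say whether counting used strand, so reads of such partners may not be told apart.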

How the data were processed

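RNA of seedlings (4 treatments, 3 libraries each, grouped by the titles) was prepared as full-length cDNA for nanopore sequencing; the labels and methods also name an Illumina preparation or platform, and this conflict was not resolved. Per the study's methods the authors removed reads under 500 bases, polished and collapsed the rest, mapped full-length reads to the transcripts (minimap2, per the submitters' processing notes; version not given) and used matches of quality above 5. The authors deposited CPM per gene and per transcript, counts scaled to 1000000 counted reads, and the annotation with positions; each column sums to 1000000, one of 2 scales that the methods name. Members and lists were chosen with earlier results of these data known.

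Dividing each CPM by the value of 1 read gave whole reads (100% within 0.01). Repeated exon lines of one transcript were merged. Shares and levels were tested with limma 3.58.1 (R 4.3.3), with pseudocounts of 0.5 CPM for ratios and 1 CPM for levels, levels only where 3 or more libraries reached 1 CPM. On the log2(CPM + 1) scale fold changes of low rows are understated, and so are changes of ratios with 0.5 CPM added. Library values had exact permutation tests (scipy 1.17.1). Alternatives were other pseudocounts and filters, TMM scaling, edgeR 4.0.16 on the reads, shares in percent, a replicate block and each library left out. The shares were also fitted on 6 libraries only. Scripts were tested on simulated data. Genes named by rule were the study's enzyme genes, the 6 smallest p over the 4 treatments, called shares, the 5 highest in CPM, the most forms, up to 5 changes of the main form, and those at the cutoff. Sequences were not used here.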

Additional observations from a re-analysis of the deposited data

How the results depend on the processing

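Over 15 results and 224 alternatives, 181 kept the direction and the side of the threshold, or a count within 1.5 times. The 181 include counts of 0 that stayed 0. What became of the counts above 0 is given next. The single called share in CK+G2 against CK (1 gene) became 0 with a pseudocount of 0.1 CPM, no minimum, or a minimum mean of 5 CPM. It also became 0 with shares in percent, edgeR, or only the 6 libraries, and 0 to 1 with a library left out. For Glyur000597s00020330.1 the log2 change, shares in percent aside, stayed between 0.75 and 1.21. That range includes the change by edgeR, which is taken relative to the whole gene and not to the other forms. For salt the count of 0 became 1 without S replicate 3 and without S+G2 replicate 3 (range 0 to 1). For gene levels in S against CK the 14 calls became 9 with TMM scaling, 9 with edgeR and 3 to 6 with a library left out. In CK+G2 against CK the 1 call became 0 with no filter, TMM scaling or edgeR, and 0 to 1 with a library left out. For transcript levels the 0 calls in S against CK became 0 to 2 with a library left out (2 without S replicate 3), and in CK+G2 against CK 1 with no filter and 0 to 1 with a library left out (1 without CK replicate 1). Without the 10 genes of highest annotated CPM the difference with salt turned from -1.02 to 0.052 percentage points for the form with number 1 and from 0.46 to -0.45 for the annotated part of the gene level. With a library left out the former ranged from -1.42 (exact permutation p = 0.0476, without S replicate 3) to -0.67. The cause of these changes was not tested.

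The replicate numbers did not pair the libraries: the correlations of deviations of same-numbered libraries ran from -0.163 to 0.147 for log ratios of shares (4 of 18 over 0.1) and from -0.209 to 0.102 for gene CPM (1 of 18). With a replicate block the called share in CK+G2 against CK went from 1 to 0, gene levels from 14 to 8 in S against CK and from 1 to 0 in CK+G2 against CK, and transcript levels in S against CK from 0 to 1.

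Depth limits these values: tested genes had a median of 33.6 annotated reads per library, and 3 reads stand for 0.764 to 0.908 CPM.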
